A study of Mus musculus with 6 samples.

Results

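Neutrophil granule and calprotectin genes were compared between PiZ and wild-type mouse liver. The genes are a functional group: S100a8, S100a9, Mmp8, Mmp9, Ngp, Camp, Ltf, Elane, Mpo and Csf3r. Every probe set whose platform annotation names exactly 1 of them was taken. This gave 11 probe sets, 2 of them for Mmp9, so that 10 genes were read of the 12393 genes with a probe set of their own.

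Livers of 3 wild-type and 3 PiZ mice were profiled on single-colour Affymetrix arrays, 1 array for each sample that the labels call a biological replicate. All mice were 6 weeks of age and of C57BL/6 strain. PiZ mice carry a transgene for the human Z variant of alpha-1 antitrypsin, a secreted protease inhibitor that in this form is retained inside hepatocytes, and the wild-type mice are the controls without it. The labels used here name neither the promoter of the transgene nor the sex of the mice, nor whether littermates were compared. The single comparison sets PiZ against wild-type liver.

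Neutrophils carry ready-made proteins in granules that are filled at successive stages of their formation in the bone marrow. Primary granules hold myeloperoxidase (Mpo) and neutrophil elastase (Elane), secondary granules hold lactoferrin (Ltf), the cathelicidin Camp, Ngp and the collagenase Mmp8, and later granules hold the gelatinase Mmp9. Most of this cargo is transcribed in marrow precursors, whereas S100a8 and S100a9, whose products pair in the cytosol as calprotectin, are also transcribed by mature neutrophils and by monocytes. Csf3r is the receptor for the granulocyte growth factor G-CSF. Alpha-1 antitrypsin is the main plasma inhibitor of neutrophil elastase, which is how this gene group touches the mouse model.

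Values below are log2 intensities. A difference is PiZ minus wild-type from a limma fit over all 22626 probe sets that are not array controls, with its standard error (SE) and a Benjamini-Hochberg adjusted p. A change is called at an adjusted p below 0.05, and n = 3 arrays per group throughout. The array medians ran from 6.12 to 6.18 and the lower quartiles from 4.27 to 4.46. The files hold no detection calls, so a probe set under the array median may read little but background. The 3′ to 5′ difference of the Gapdh control transcript, which grows as RNA shortens, was 1.49 to 2.06 in the wild-type arrays and 1.99 in PiZ replicate 1, but 4.39 and 4.01 in PiZ replicates 2 and 3. Values for PiZ replicate 1 are therefore given apart for the members in a plot and for several genes in the text.

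The pair of calprotectin genes rose clearly in PiZ liver and the collagenase gene Mmp8 rose from a very low level, while the other 7 genes did not pass the test. In counts, 3 of 11 member probe sets were called higher and 0 lower, where 8.93% of all probe sets were called higher and 10.2% lower. By unadjusted p below 0.05, 6 of the 11 were higher, where 19.2% of all probe sets were. In PiZ replicate 1 alone against the wild-type arrays, 3 were called higher (7.12% of all probe sets), under the assumption that this array varies like wild-type. Without PiZ replicate 1 there were 5, with Ltf and Csf3r added, but 25.3% of all probe sets were then called higher. Without wild-type replicate 1 there were 2, where 2.69% of all probe sets were called higher. In whole liver RNA, more cells of a type and more RNA per cell cannot be told apart.

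**Figure D1:**
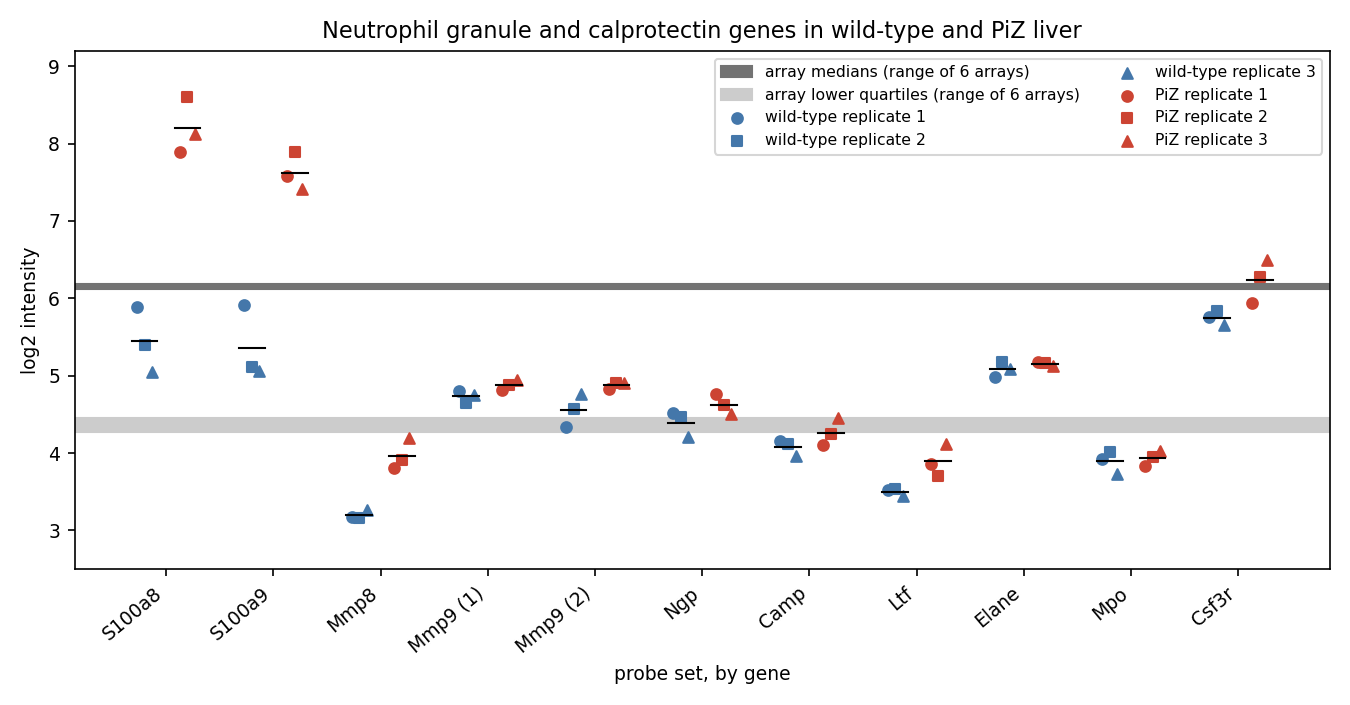
Log2 intensity of the 11 member probe sets on each array, with wild-type in blue, PiZ in red, a marker shape per replicate and a black line at each group mean. Mmp9 (1) and (2) are its 2 probe sets, and the grey bands span the array medians (6.12 to 6.18) and lower quartiles (4.27 to 4.46). Only S100a8 and S100a9 lie below the medians in all wild-type arrays and above them in all PiZ arrays.

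S100a8 and S100a9 encode the 2 chains of calprotectin, a calcium- and zinc-binding complex that is released at sites of inflammation. S100a8 read 5.88, 5.40 and 5.05 in wild-type replicates 1, 2 and 3, and 7.89, 8.60 and 8.12 in PiZ replicates 1, 2 and 3. All wild-type values were below the array median and all PiZ values above it, with no overlap. The means were 5.44 ± 0.42 (SD) and 8.20 ± 0.36, a difference of 2.76 (SE 0.25, 95% interval 2.17 to 3.35, limma adjusted p = 0.00137), or 6.77-fold. Its rank among the rises of all 22626 probe sets was 43.

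S100a9 read 5.92, 5.11 and 5.05 in wild-type replicates 1, 2 and 3, and 7.58, 7.89 and 7.41 in PiZ. It also moved from below to above the array medians without overlap. The means were 5.36 ± 0.48 and 7.63 ± 0.24, a difference of 2.27 (SE 0.25, 95% interval 1.69 to 2.84, limma adjusted p = 0.0024), or 4.81-fold, and its rank was 65. The intervals of the 2 genes overlap, and whether their rises differ was not tested.

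Wild-type replicate 1 held the highest wild-type value of both genes and PiZ replicate 2 the highest PiZ value of both. The rise was also present on the PiZ array whose 3′ to 5′ difference lay within the wild-type range. In PiZ replicate 1, S100a8 stood 2.44 and S100a9 2.22 above the wild-type mean, against 2.92 and 2.29 in the mean of PiZ replicates 2 and 3. Both genes passed in all 16 other fits, in which the difference ran from 2.44 to 2.98 for S100a8 and from 2.11 to 2.54 for S100a9, with limma adjusted p of at most 0.0131 and 0.0171.

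The upstream sequences of the genes that rose are shown beside that of Ngp, a secondary granule gene that did not pass the test, to let their C/EBP-like letters be compared. C/EBP proteins are transcription factors of the myeloid lineage and of hepatocytes. The sequences are the 250 bases before the annotated start on the sense strand, from RefSeq (GRCm38.p6), which holds such a window for 9 of the 10 genes. Capitals mark matches to TTNNGNAA, a C/EBP-like pattern searched on both strands, and to the TATA box letters TATAAA on the sense strand. S100a8 lies at chr3:90668821-90669070 (+), S100a9 at chr3:90695722-90695971 (-), Mmp8 at chr9:7558179-7558428 (+) and Ngp at chr9:110419558-110419807 (+).
S100a8: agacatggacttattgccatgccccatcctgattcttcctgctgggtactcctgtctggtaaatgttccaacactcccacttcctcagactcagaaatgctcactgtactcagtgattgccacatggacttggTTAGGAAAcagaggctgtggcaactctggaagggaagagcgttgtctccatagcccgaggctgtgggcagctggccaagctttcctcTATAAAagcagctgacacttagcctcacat
S100a9: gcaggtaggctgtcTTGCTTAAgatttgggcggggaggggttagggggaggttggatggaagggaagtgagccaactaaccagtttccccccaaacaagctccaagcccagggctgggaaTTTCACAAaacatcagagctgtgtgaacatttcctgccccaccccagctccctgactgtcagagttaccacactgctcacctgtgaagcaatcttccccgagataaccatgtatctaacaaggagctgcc
Mmp8: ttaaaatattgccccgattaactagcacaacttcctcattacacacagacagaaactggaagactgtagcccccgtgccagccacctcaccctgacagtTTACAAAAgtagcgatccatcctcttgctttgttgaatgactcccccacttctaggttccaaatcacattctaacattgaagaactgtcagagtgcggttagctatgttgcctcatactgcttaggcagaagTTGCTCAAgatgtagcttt
Ngp: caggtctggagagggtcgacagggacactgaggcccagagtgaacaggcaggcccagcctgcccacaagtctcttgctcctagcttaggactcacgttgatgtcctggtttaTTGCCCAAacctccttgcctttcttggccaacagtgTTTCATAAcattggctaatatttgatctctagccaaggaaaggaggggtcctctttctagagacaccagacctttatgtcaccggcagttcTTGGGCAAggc

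The C/EBP-like letters were present in 5 of the 9 member windows, those of S100a8, S100a9, Mmp8, Ngp and Ltf, and in 36.8% of all 32851 windows of this length. In S100a8 the match starts 117 bases before the start, in S100a9 236 and 130 bases, in Mmp8 151 and 19 bases, and in Ngp 138, 102 and 11 bases. All 3 genes that rose had the letters, and so did 2 that did not pass. AGGAAG, the core of sites for PU.1 and other ETS factors, was found on either strand in 7 windows, including S100a8 and Mmp8 but not S100a9, and in 29.5% of all windows. An NF-kB consensus (4.11% of windows) and the C/EBP-ATF composite TGATGNAA (3.45%) were found in 0 of the 9 windows. TATAAA was found in the S100a8 window alone, 30 bases before the start, and in 7.59% of all windows. A match says only that the letters are there.

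In the RefSeq gene order S100a9 is the next protein-coding gene after S100a8, within the S100 cluster of chromosome 3. Of the 6 genes directly before S100a8 in that order, the 4 that were measured did not pass. S100a6, S100a5, S100a4 and S100a3 differed by 0.23 (SE 0.22), 0.084 (SE 0.12), 0.37 (SE 0.15) and 0.21 (SE 0.13) (limma adjusted p = 0.473, 0.641, 0.12 and 0.277).

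**Figure D2:**
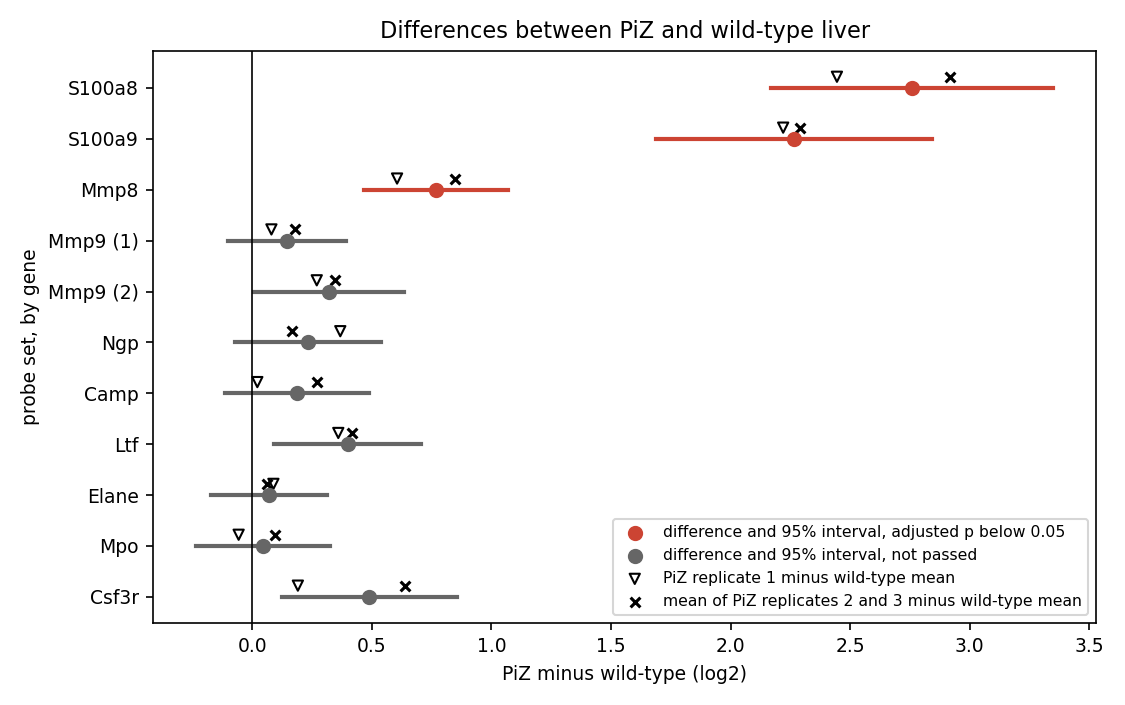
PiZ minus wild-type (log2) for each member probe set, with the 95% interval of the limma fit as a bar, in red where the adjusted p was below 0.05. Triangles give PiZ replicate 1 and crosses the mean of PiZ replicates 2 and 3, each minus the wild-type mean. S100a8 (2.76) and S100a9 (2.27) stand far to the right of the other members, Mmp8 (0.77) comes next, and for Csf3r replicate 1 (0.19) lies well below replicates 2 and 3 (0.64).

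Among the collagenase and gelatinase genes, Mmp8 rose and Mmp9 did not pass. Mmp8, the neutrophil collagenase of secondary granules, read 3.18, 3.16 and 3.26 in wild-type and 3.80, 3.90 and 4.19 in PiZ replicates 1, 2 and 3. All PiZ values were above all wild-type values, but all 6 were also below the lower quartile of their arrays. The difference was 0.77 (SE 0.13, 95% interval 0.47 to 1.07, limma adjusted p = 0.00948), or 1.70-fold. Dim probe sets as a class read somewhat higher in PiZ: those with a mean at or under 6.18 had a median difference of 0.13, and 5.65% of them were called higher. In PiZ replicate 1 Mmp8 stood 0.61 above the wild-type mean. The call was lost without wild-type replicate 1 (limma adjusted p = 0.0511) and after centring on reference genes (0.122), and it held in the other 13 of 15 fits that included it. After centring the Mmp8 difference was 0.80. Of the 9 reference genes used, 3 were themselves called higher and 2 lower in the fit as reported.

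Mmp9, a gelatinase of neutrophils and macrophages, was read by 2 probe sets, both below the array medians on all arrays. The first read 4.80, 4.64 and 4.75 in wild-type and 4.81, 4.88 and 4.94 in PiZ, and the second 4.33, 4.57 and 4.77 against 4.83, 4.90 and 4.90. PiZ values lay above wild-type in both probe sets, but by little. The differences were 0.14 (SE 0.10, limma adjusted p = 0.344) and 0.32 (SE 0.13, adjusted p = 0.126), with 95% intervals of -0.10 to 0.39 and 0.0081 to 0.63. Neither passed in any other fit.

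The secondary granule genes Ngp, Camp and Ltf did not pass, and all were below the array medians on every array. Ngp, a cathelin-related granule protein, read 4.51, 4.47 and 4.20 in wild-type and 4.76, 4.62 and 4.50 in PiZ. The groups overlapped, and the difference was 0.23 (SE 0.13, 95% interval -0.073 to 0.54, limma adjusted p = 0.234). It was 0.37 in PiZ replicate 1 and 0.16 in PiZ replicates 2 and 3. Camp, the antimicrobial cathelicidin, read 4.16, 4.12 and 3.96 in wild-type and 4.10, 4.25 and 4.45 in PiZ. Its groups overlapped too, with a difference of 0.19 (SE 0.13, 95% interval -0.11 to 0.49, adjusted p = 0.324), which was 0.021 in PiZ replicate 1. It passed in 1 of 15 other fits, the fit with array weights (adjusted p = 0.0464).

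Ltf, the iron-binding lactoferrin, read 3.52, 3.53 and 3.44 in wild-type and 3.86, 3.70 and 4.12 in PiZ replicates 1, 2 and 3. The groups did not overlap, yet all values were below the lower quartiles of their arrays. The difference of 0.40 (SE 0.13, 95% interval 0.089 to 0.71) missed the threshold (limma adjusted p = 0.0727). It passed without PiZ replicate 1 (adjusted p = 0.0387) and with array weights (0.0057), and its adjusted p reached 0.543 over the other fits.

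The primary granule genes Elane and Mpo showed the smallest differences of the members. Elane, the elastase that alpha-1 antitrypsin inhibits, read 4.98, 5.18 and 5.09 in wild-type and 5.17, 5.16 and 5.13 in PiZ. The PiZ values lay inside the wild-type range, below the array medians, with a difference of 0.070 (SE 0.10, 95% interval -0.17 to 0.31, limma adjusted p = 0.65). Mpo, which makes hypochlorous acid, read 3.92, 4.02 and 3.73 in wild-type and 3.83, 3.95 and 4.02 in PiZ, all below the lower quartiles. The difference was 0.045 (SE 0.12, 95% interval -0.23 to 0.32, adjusted p = 0.808). After cyclic loess the differences read -0.063 for Elane and -0.088 for Mpo, so neither has a settled direction. The intervals allow a change of up to 0.31 and 0.32 in these probe sets, on a scale that is compressed at such low intensity.

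Csf3r, the G-CSF receptor, read 5.76, 5.83 and 5.66 in wild-type and 5.94, 6.28 and 6.50 in PiZ replicates 1, 2 and 3. The wild-type values and PiZ replicate 1 were below their array medians, PiZ replicates 2 and 3 were above, and the groups did not overlap. The difference of 0.49 (SE 0.16, 95% interval 0.12 to 0.85) missed the threshold (limma adjusted p = 0.0662). It was 0.19 in PiZ replicate 1 and 0.64 in PiZ replicates 2 and 3, so that the arrays with the larger 3′ to 5′ difference read higher. When the 3′ to 5′ values entered the fit as a covariate, the group difference was 0.19 (limma adjusted p = 0.48). Those values set PiZ replicates 2 and 3 apart from the other arrays. The covariate fit therefore rests largely on PiZ replicate 1 and is no separate check of its value. Without PiZ replicate 1 Csf3r passed (adjusted p = 0.00311).

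Over the 11 member probe sets, 7 had all PiZ values above all wild-type values, where 23.4% of all probe sets did. All 11 differences were above 0 in the fit as reported, as were 13360 of all 22626, and their median was 0.32 against 0.075 over all probe sets. In wild-type liver all 11 were below the array medians on every array, and in PiZ liver 8 were. The 3 that were not are S100a8, S100a9 and Csf3r.

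**Figure D3:**
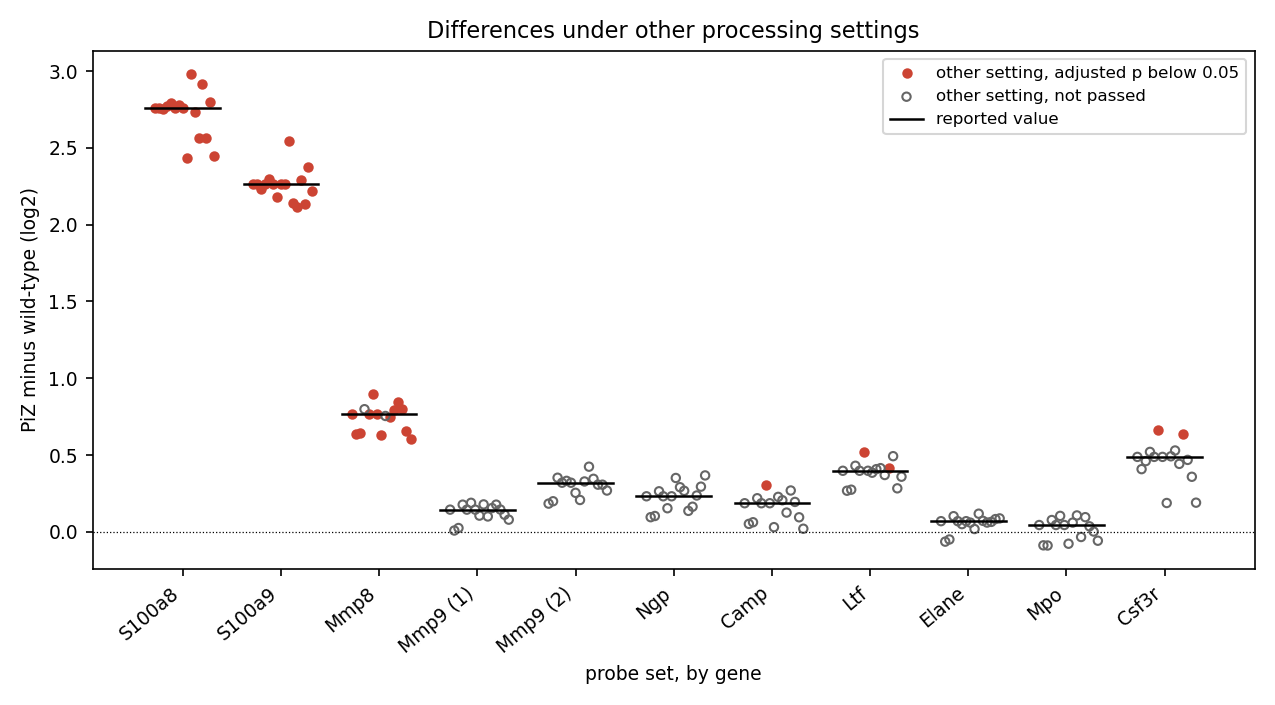
PiZ minus wild-type (log2) of each member probe set under other processing settings (points, red where the adjusted p was below 0.05), with the reported value as a black line. S100a8 and S100a9 stay between 2.11 and 2.98 and pass throughout, while Elane and Mpo scatter around 0.

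Other genes of the neutrophil were read from lists, each gene by the brightest probe set that names it alone. Where several probe sets name a gene, the others did not always give the same call. Across the 12393 genes read in that way, 9.99% were called higher and 11.2% lower, with a median difference of 0.078. Without PiZ replicate 1 these shares were 26.6% and 21.9%, and without any other single array they were 3.14% to 5.71% and 3.10% to 6.42%, and the list counts that follow are to be read beside these shares.

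Of 12 measured genes listed as other granule genes, 1 rose and 1 fell, with a median of 0.12. Lcn2, the siderophore-binding lipocalin that neutrophils store and hepatocytes secrete, read 5.10, 5.36 and 5.60 in wild-type and 8.70, 8.20 and 8.33 in PiZ. It rose by 3.06 (SE 0.18, limma adjusted p = 0.00022) and passed in all 16 other fits. Arg1, listed as a granule arginase, is a urea cycle enzyme of hepatocytes, and its cell of origin here was not tested. It read 13.03, 13.10 and 13.20 in wild-type and 12.69, 12.44 and 12.11 in PiZ. The fall was 0.70 (SE 0.16, limma adjusted p = 0.0249). That call was kept in 8 of 16 other fits and in 1 of the 6 that leave out an array, the one without PiZ replicate 1. The serine proteases of primary granules did not pass: Prtn3 differed by 0.00092 (SE 0.18) and Ctsg by 0.23 (SE 0.099). Ms4a3, of granulocyte precursors, differed by 0.028 (SE 0.12) and the neutrophil surface protein Cd177 by -0.042 (SE 0.11). No probe set names Retnlg, Bpi or Fcnb alone.

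Of 21 neutrophil surface receptors measured, 5 rose and 0 fell, with a median of 0.31. Cd300lf, an inhibitory myeloid receptor, read 5.26, 4.996 and 5.05 in wild-type and 6.16, 7.04 and 6.93 in PiZ, a rise of 1.61 (SE 0.23, limma adjusted p = 0.00577) that held in all 15 other fits that included it. The C-type lectins Clec4d and Clec4e rose by 0.86 (SE 0.17) and 0.64 (SE 0.12), the selectin ligand Selplg by 0.61 (SE 0.11) and the chemokine receptor Cxcr4 by 0.50 (SE 0.13). Another Clec4e probe set differed by 0.17 (SE 0.16, limma adjusted p = 0.451) and did not pass. Clec4d, Clec4e and Cxcr4 were below the array medians on all arrays. The chemokine receptor Cxcr2 differed by 0.36 (SE 0.12, adjusted p = 0.0749) and the integrin Itgam by 0.23 (SE 0.12, adjusted p = 0.211), and neither passed. The count of 5 became 1 without wild-type replicate 1 or 3, 3 without PiZ replicate 2 or 3, 10 without PiZ replicate 1, and 3 in PiZ replicate 1 alone. Ly6g is the usual surface marker of mouse neutrophils, but no single-gene probe set names it.

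Of 5 measured subunits of the phagocyte oxidase, which makes superoxide in neutrophils and macrophages, only Cyba was called. It rose by 0.40 (SE 0.11, limma adjusted p = 0.0389), and of the 6 fits that leave out an array only the one without PiZ replicate 1 kept the call. Cybb, its catalytic partner in phagocytes, differed by -0.013 (SE 0.22) and Ncf1 by -0.041 (SE 0.19).

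Among 8 measured transcription factors of granulocyte formation, 2 rose and 1 fell (median 0.37). Cebpd read 7.09, 7.42 and 7.26 in wild-type and 8.93, 8.20 and 7.97 in PiZ, a rise of 1.11 (SE 0.24, limma adjusted p = 0.0212), and Cebpb rose by 0.66 (SE 0.12, adjusted p = 0.0119). Another Cebpd probe set was also called (0.60, SE 0.12), while another of Cebpb did not pass (0.46, SE 0.18, limma adjusted p = 0.105). Cebpa fell by 0.78 (SE 0.13, adjusted p = 0.0093). These 3 factors are also made by hepatocytes. Spi1 (PU.1), which marks myeloid cells, differed by 0.43 (SE 0.15, adjusted p = 0.0829), and Gfi1, of granulocyte precursors, by 0.011 (SE 0.16). Without wild-type replicate 1, 1 of the 8 was called higher, without wild-type replicate 2 or 3 there were 0, and without PiZ replicate 1 there were 6. The fall of Cebpa was lost without wild-type replicate 3.

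Of 18 measured genes for the signals that attract neutrophils or drive their formation, 1 rose, 3 fell and 14 did not pass (median 0.16). Cxcl12, the chemokine that retains neutrophils in marrow, fell by 1.45 (SE 0.22, limma adjusted p = 0.00644) in all fits. Cxcl1, a main neutrophil attractant, read 8.43, 8.89 and 7.80 in wild-type and 6.99, 6.28 and 7.72 in PiZ, a fall of 1.38 (SE 0.40, adjusted p = 0.0485) that passed in 7 of 16 other fits. Hc, the mouse complement C5, fell by 0.88 (SE 0.12, adjusted p = 0.0046), and Tnf rose by 0.57 (SE 0.14, adjusted p = 0.0313) below the array medians. The G-CSF gene Csf3 differed by 0.27 (SE 0.17), Cxcl2 by 0.045 (SE 0.13), Cxcl5 by 0.30 (SE 0.12), Il1b by 0.11 (SE 0.13) and the endothelial E-selectin Sele by -0.031 (SE 0.099), and none passed. In PiZ replicate 1 the median of the list was -0.083, against 0.26 in PiZ replicates 2 and 3, and Csf3, Cxcl2 and Il1b stood at -0.083, -0.18 and -0.098. Tnf was not called without any 1 array other than PiZ replicate 1, and Cxcl1 was not called without any 1 wild-type array or PiZ replicate 2.

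Of 17 genes listed as receptors and inhibitors of the member proteins, 1 rose and 2 fell (median 0.0097). Cd14, the lipopolysaccharide co-receptor that works with Tlr4, rose by 1.02 (SE 0.21, limma adjusted p = 0.0184). Tlr4, a receptor of calprotectin, differed by -0.36 (SE 0.16, adjusted p = 0.14), and Ager (RAGE), another, by 0.18 (SE 0.14), which was -0.082 in PiZ replicate 1. Timp1, the inhibitor of Mmp9, read 3.97, 4.50 and 4.35 in wild-type and 4.67, 4.93 and 4.79 in PiZ and missed the threshold (0.52, SE 0.16, adjusted p = 0.059). The scavenger receptor Lrp1, which takes up protease complexes and lactoferrin, fell by 1.08 (SE 0.11, limma adjusted p = 0.00191) in all fits. The other fall was that of cystatin Cst3, by 0.70 (SE 0.19, limma adjusted p = 0.0402). Cystatins inhibit cysteine proteases, and no member is one. Slpi, an inhibitor of elastase, differed by -0.076 (SE 0.12). Without any 1 wild-type array or PiZ replicate 2, Cd14 was not called, and Cst3 was called only without PiZ replicate 1 among the fits that leave out an array.

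Within the S100 family, the calprotectin genes had the largest rises. Of 11 other S100 genes 2 rose and 2 fell (median 0.23). The same 4 genes were called in every other fit that included them. S100g, a calcium-binding protein of epithelia, rose by 1.50 (SE 0.25, limma adjusted p = 0.00932) and S100a10, the annexin A2 partner, by 1.44 (SE 0.16, adjusted p = 0.0027). The S100g probe set was dim, with a mean at or under 6.18, and was not in the fit without dim probe sets. S100a13 fell by 1.15 (SE 0.12, adjusted p = 0.00194) and S100a1 by 1.03 (SE 0.12, adjusted p = 0.00316).

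Of 14 other matrix metalloproteinases, 2 rose and 0 fell (median 0.24). Mmp19 read 6.56, 6.24 and 6.13 in wild-type and 7.31, 7.34 and 7.11 in PiZ, a rise of 0.94 (SE 0.14, limma adjusted p = 0.00712) that held in all other fits. Mmp24 rose by 0.49 (SE 0.13, adjusted p = 0.0391) below the array medians, and passed in 4 of 15 other fits. Dimmer probe sets of Mmp19 (0.60, SE 0.18, limma adjusted p = 0.0557) and Mmp24 (0.27, SE 0.099, adjusted p = 0.0926) did not pass. Without PiZ replicate 1, 7 of the 14 were called higher, where 26.6% of all genes were, and without any other single array 1 was. The macrophage elastase Mmp12 differed by 0.34 (SE 0.11, adjusted p = 0.0703).

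**Figure D4:**
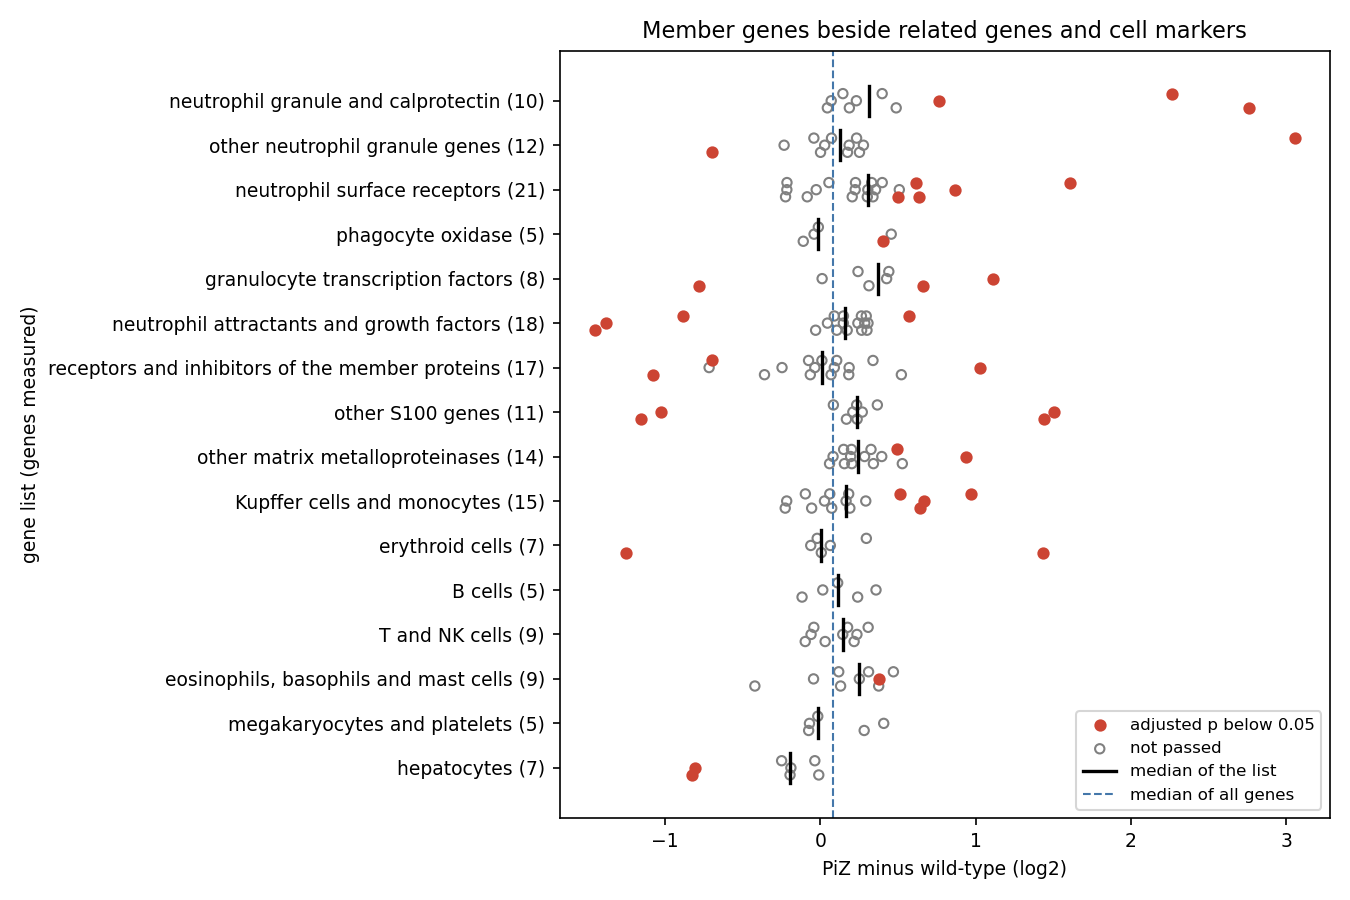
PiZ minus wild-type (log2) of each measured gene in the member group, in related gene lists and in cell marker lists, in red where the adjusted p was below 0.05. The black bar is each list's median, the dashed line the median of all genes (0.078), and the number measured stands in parentheses. Lcn2, S100a8 and S100a9 have the largest rises shown, and the B cell, T and NK cell and platelet lists hold no called gene.

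Markers of other cells were read beside the members, since calprotectin and several of the receptors are also expressed by monocytes. Of 15 measured markers of Kupffer cells and monocytes, 4 rose and 0 fell (median 0.17). Marco rose by 0.97 (SE 0.16, limma adjusted p = 0.00932), Cd5l by 0.67 (SE 0.12), Clec4f by 0.64 (SE 0.11) and Cx3cr1 by 0.51 (SE 0.12), whereas Adgre1 differed by -0.097 (SE 0.25), Vsig4 by -0.23 (SE 0.19) and Cd68 by 0.073 (SE 0.14). In PiZ replicate 1 these 3 stood 0.40, 0.22 and 0.32 above the wild-type mean, and the median of the list was 0.35 there against 0.13 in PiZ replicates 2 and 3. The mean log2 level of this list ran from 8.05 to 8.17 in wild-type and from 8.14 to 8.44 in PiZ, and 3 of the 15 were below the medians on all arrays. Another Cx3cr1 probe set differed by 0.16 (SE 0.15) and did not pass. C1qb did not pass by its brightest probe set (-0.056, SE 0.20), while its others were called higher, by 0.54 and 0.50 (SE 0.13 each). The count of 4 became 1 without wild-type replicate 1 or 3, and 2 without wild-type replicate 2. Without PiZ replicate 1, 5 were called higher and 2 lower (C1qc and Vsig4), where 26.6% and 21.9% of all genes were. The part of these cells in the rise of S100a8 and S100a9 was not tested.

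Of the markers listed for neutrophils, S100a8, S100a9 and Mmp8 rose, Ngp, Camp, Ltf, Csf3r, Cxcr2 and Itgam did not pass, and Ly6g and Retnlg had no single-gene probe set. The mean level of the 10 member genes ran from 4.42 to 4.66 in wild-type and from 5.17 to 5.34 in PiZ. That mean includes S100a8 and S100a9, which rose by 2.76 and 2.27, while the median difference of the 10 genes was 0.31. The granule genes Mmp8, Mmp9, Ngp, Camp, Ltf, Elane and Mpo were below the medians on all arrays. Lymphocyte and platelet markers were called in no direction: 0 of 5 B cell, 0 of 9 T and NK cell and 0 of 5 platelet genes passed with limma, and 0, 1 and 1 had an unadjusted p below 0.05, as 39.6% of all genes did. Of 9 markers of eosinophils, basophils and mast cells 1 rose, Ms4a2 by 0.38 (SE 0.098, adjusted p = 0.0363), with all 9 below the array medians and the call kept in 4 of 15 other fits. Of 7 erythroid markers Tfrc, the transferrin receptor, rose by 1.44 (SE 0.22, adjusted p = 0.00748) and Klf1 fell by 1.25 (SE 0.14, adjusted p = 0.00274). Hepatocyte markers were above the medians on all arrays, with a mean level of 14.5 in wild-type and 14.1 to 14.4 in PiZ. Of 7 measured, 2 fell, Fgb by 0.83 (SE 0.18) and Apob by 0.81 (SE 0.18), and neither call was kept without any single array other than PiZ replicate 1.

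The genes whose values followed the calprotectin pair most closely over the 6 arrays were Jund, Slc16a6, Gpx3, Atf4, Mmp19 and Trp53inp1. They were the 6 highest by Pearson correlation with the mean of S100a8 and S100a9 among 1908 other genes of above-median level and a range of at least 1. The coefficients were 0.997, 0.995, 0.992, 0.989, 0.989 and 0.989. The 6 arrays fall into 2 groups that stand apart in all of these genes, so each coefficient includes that gap, and it is given as a description. Jund, an AP-1 transcription factor, read 9.87, 9.53 and 9.58 in wild-type and 10.78, 11.05 and 10.86 in PiZ, a difference of 1.24 (SE 0.14). Slc16a6 rose by 1.53 (SE 0.14), the secreted glutathione peroxidase Gpx3 by 2.12 (SE 0.16), the stress factor Atf4 by 0.88 (SE 0.11) and Trp53inp1 by 2.85 (SE 0.18). Wild-type replicate 1 was the highest wild-type array for each of the 6, as it was for S100a8 and S100a9, an order that the choice by correlation favours.

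**Figure D5:**
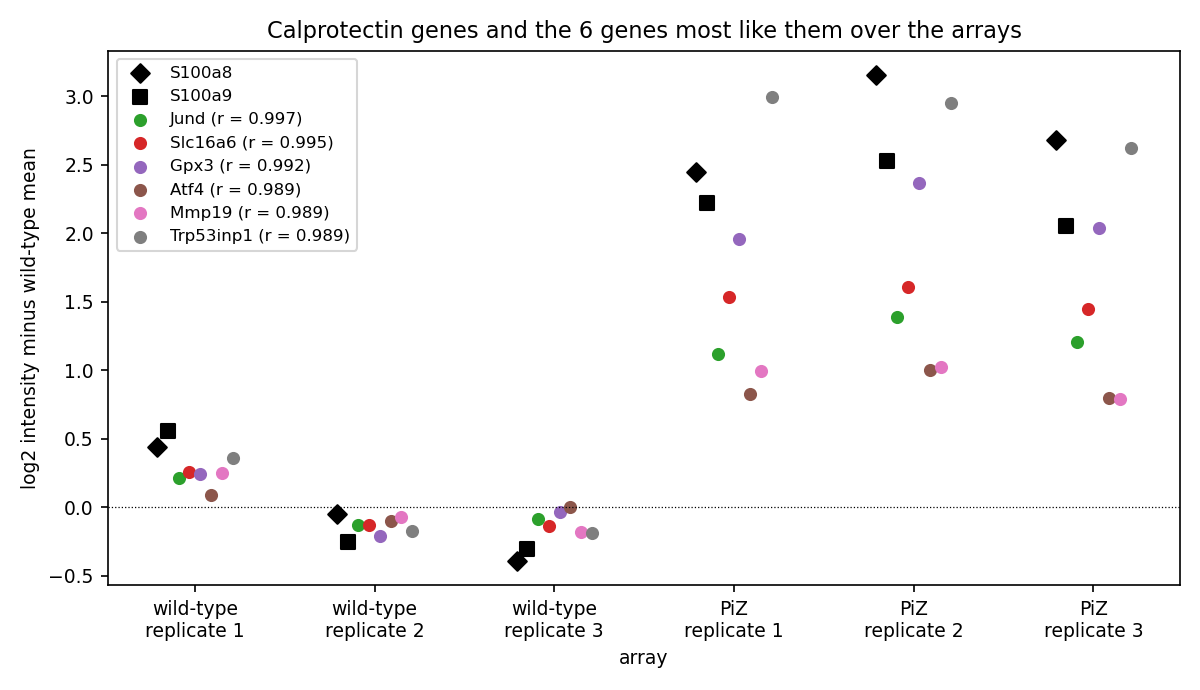
Log2 intensity minus the wild-type mean on each of the 6 arrays for S100a8 and S100a9 (black) and for the 6 genes most correlated with their mean (coloured circles, with Pearson r). In all 8 genes, 6 of them chosen by this correlation, wild-type replicate 1 lies above the other wild-type arrays and the PiZ arrays lie far above both.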

How the data were processed

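RNA from 6 mouse livers, 3 of them PiZ, was measured on Affymetrix arrays of 22690 probe sets. The authors deposited log2 values made with RMA in the affy package, per the submitters' processing notes, with their versions not given in the sources used here. RMA fits the arrays together, adjusts background and normalizes between arrays, which compresses differences between dim probe sets. Precision is limited by the number of arrays.

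The deposited values were used without further normalization. After 64 control probe sets were left out, limma 3.58.1 (R 4.3.3) was fitted to 22626 probe sets, with lmFit and eBayes on the 2 groups and Benjamini-Hochberg adjustment over all of them. Tables were made with Python 3.11.15 and pandas 2.3.3. The platform annotation gave 1 gene for 20380 probe sets, several for 691 and none for 1555. On simulated data with 200 changed probe sets of 22626, the fit recovered 64% of those changed by 1 and 93% of those changed by 2 on the log2 scale, with 16 false calls among 173. The simulated noise was independent, of equal spread in both groups and without a 3′ to 5′ shift. These rates therefore need not hold for the arrays used here.

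The members and the related lists were chosen with earlier results of these data known. The text names all member probe sets, up to 4 called genes of each list by size, and the 6 genes most correlated with calprotectin over the arrays. Other genes of the lists, Cxcr4 and genes that did not pass among them, were chosen for mention after their values were seen. In lists where no gene passed, the 2 with the smallest p were Cd22 (0.36) and Blk (0.24) for B cells, Nkg7 (0.31) and Cd3d (0.22) for T and NK cells, and Gp9 (0.41) and Itga2b (0.28) for platelets, as log2 differences. The alternatives were other scalings, a filter on dim probe sets, 1 probe set for each gene, other variance models, array weights, the 3′ to 5′ values as covariate, a replicate block and leaving out arrays. The covariate fit and PiZ replicate 1 alone gave close differences (2.44 in each for S100a8), so they are not separate checks.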

Additional observations from a re-analysis of the deposited data

How the results depend on the processing

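S100a8 and S100a9 kept their direction and their call in all 16 alternatives, and the number of members called lower was 0 in each. The 3 members called higher became 6 with array weights, which added Camp, Ltf and Csf3r, and 2 to 5 when 1 array was left out. Over all probe sets, 2020 were called higher and 2311 lower. These became 594 and 997 after centring on reference genes, 6038 and 4948 with array weights, and 1308 and 1504 with the 3′ to 5′ covariate. With 1 probe set for each gene, 12393 were tested and 1525 were lower, a share of 12.3% against 10.2% in the fit as reported. Leaving out 1 array gave 598 to 5734 higher and 641 to 4813 lower. Over the related lists, 21 genes were called higher and 12 lower, where 9.99% and 11.2% of all genes were. These became 9 and 6 after centring (2.96% and 4.45% of all genes). With array weights they became 53 and 21 (27.9% and 22.7%), and with the covariate 13 and 7 (6.47% and 7.12%). Without dim probe sets, a fit that drops the list genes whose probe set is dim, 11 were higher (13.9% of all genes kept). Leaving out 1 array gave 7 to 53 higher and 6 to 18 lower. The shares of all genes then ran from 3.14% to 26.6% and from 3.10% to 21.9%. Elane reversed to -0.063 after cyclic loess and -0.049 after quantile normalization. Mpo reversed to -0.088 after cyclic loess, -0.089 after quantile normalization, -0.077 with the covariate, -0.057 in PiZ replicate 1 alone and -0.033 without wild-type replicate 3. The causes were not tested. The median of all probe sets was 0.075 and moved to 0.0048 after cyclic loess, 0.019 after quantile normalization and 0.11 after centring. Whether the replicate numbers pair the samples is not given by the labels, and no pairing was assumed in the fit as reported. Same-numbered arrays correlated at 0.348, 0.408 and -0.016 in their deviations from the group means. Wild-type replicates 1 and 2 matched their own number best, and wild-type replicate 3 matched another. With the replicate block, 3 members were higher and 0 lower, 2281 probe sets were higher and 2908 lower, and 20 related genes were higher and 11 lower. Mmp8, Ltf and Mpo lay below the lower quartile on all 6 arrays, and how far they stand above background was not measured.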
